A study of Mus musculus with 58 samples.

Results

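The actin cytoskeleton drives microglial process movement, migration and phagocytosis. Filaments grow by adding actin monomers at one end. Nucleators such as the Arp2/3 complex start new filaments, Ena/VASP proteins keep the growing ends extending, bundling proteins tie filaments together, and membrane-bound proteins release or sequester the lipids that control this machinery. In microglia and other leukocytes several of these roles are filled by forms that are largely restricted to cells of the haematopoietic lineage.

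Expression of 8 genes of this machinery, out of 47643 Ensembl genes in the count files, was examined in 34 mouse microglia libraries. The genes were Vasp, Marcks, Marcksl1, Lcp1, Lsp1, Coro1a, Frmd6 and Afap1l2. They were taken by name as actin and motility genes, and several were selected on measured values, namely strong fold changes with tau fibrils or with active IKKβ, so their values in those comparisons are a description, given with no p. All 8 passed the filter on low counts in each of the 4 comparisons. Each had 1 annotated locus in GRCm38 (GENCODE M21), all protein coding. Vasp lies at chr7:19256929-19271817 on the minus strand, Marcks at chr10:37133375-37138920 on the minus strand, Marcksl1 at chr4:129513581-129515985 on the plus strand and Lcp1 at chr14:75131101-75230842 on the plus strand. Lsp1 lies at chr7:142460809-142494867 on the plus strand, Coro1a at chr7:126699773-126707787 on the minus strand, Frmd6 at chr12:70825514-70902234 on the plus strand and Afap1l2 at chr19:56912361-57008228 on the minus strand. Exons of Coro1a overlapped those of Bola2, and exons of Lcp1 those of Gm15628 and Gm15629, each on the opposite strand, and the strand setting of the counting is not given in the sources used here, so reads of these pairs may be shared.

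The libraries fell into 8 groups that form 4 comparisons. In the first, primary wild-type microglia received full-length tau fibrils at 2 µg/ml for 24 h (tau fibrils, n = 4) or vehicle (n = 4). In the second, CD11b-positive microglia were isolated from male PS19 mice (n = 4), which carry a mutant human tau transgene, and from non-transgenic NTG males (n = 4), at 10.98 or 11.18 months. The third set consisted of primary microglia of IkbkbCA (Cx3cr1CreERT2/+; IkbkbCA F/F, n = 5) and IkbkbWT (Cx3cr1+/+; IkbkbCA F/F, n = 5), where Cre releases a constitutively active form of IKKβ, the kinase that activates NF-κB. In the fourth, Cre deletes Ikbkb, giving Ikbkb-/- (Cx3cr1CreERT2/+; Ikbkb F/F, n = 4) to be set against Ikbkb+/+ (Cx3cr1+/+; Ikbkb F/F, n = 4). All 4 of these groups received 4-hydroxytamoxifen, the drug that activates the Cre, and the Cre sits in the Cx3cr1 locus, so every IkbkbCA and Ikbkb-/- culture has lost 1 functional Cx3cr1 allele and no control has. The change in IKKβ and the Cre allele therefore cannot be told apart. Nothing in the labels ties the libraries of a group to separate cultures, so for the cultures p-values measure the spread between these samples, which may be technical. Levels are given as CPM, counts set to a common library size and scaled by the trimmed mean of M values over all 34 libraries. The libraries held 1672052 to 8349128 counts in genes.

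Several libraries stood apart. Ikbkb, read by a 3′ tag, was 18.7 to 24.7 CPM in the 4 Ikbkb-/- libraries against 45.6 to 55.2 CPM in Ikbkb+/+, without overlap. Whether the tag lies in the deleted part is not given in the sources used here. In IkbkbCA it was 45.1 to 60.4 CPM against 40.5 to 58.8 CPM in IkbkbWT. Whether the tag lies in the active transgene is not given in the sources used here, so the level checks those labels little. Cx3cr1 was 1198 ± 80.3 CPM (SD, n = 5) in IkbkbCA against 1759 ± 222 CPM (SD, n = 5) in IkbkbWT, and 1055 ± 113 CPM (SD, n = 4) in Ikbkb-/- against 2372 ± 443 CPM (SD, n = 4) in Ikbkb+/+. The female transcript Xist was 5.65 to 10.4 CPM in Ikbkb-/- and 243 to 401 CPM in Ikbkb+/+, and the Y-linked Ddx3y was 155 to 173 CPM in Ikbkb-/- and 35.1 to 69.4 CPM in Ikbkb+/+, so the sex makeup of the cultures moved with the Ikbkb deletion and the 2 cannot be told apart. In IkbkbWT, replicates 1 to 3 had Xist at 1.70 to 2.82 CPM and replicates 4 and 5 at 469 and 485 CPM, while all 5 IkbkbCA libraries held both transcripts. PS19 1, labelled male, had Xist at 177 CPM. IkbkbWT 3 and IkbkbCA 3 had the highest sums over 8 oligodendrocyte markers in their groups, 5051 and 1941 CPM, where the group medians were 955 and 946 CPM. Libraries of the IkbkbCA comparison also split by their sum over 8 neuron markers, which was 318 to 345 CPM in replicates 4 and 5 of both groups and 35.6 to 108 CPM in the other 3 of each. In IkbkbWT this split fell on the same libraries as that of Xist. Sex makeup therefore differed between IkbkbCA and IkbkbWT within both parts of the split, and its part in the differences was not tested. Replicates 1 and 2, and replicates 4 and 5, were also the pairs with the closest counts within IkbkbCA and within IkbkbWT, so the libraries of a group may not be independent and its errors may be too small. In PS19 the closest pairs were replicates 1 and 2, and 3 and 4. Their chi-square per degree of freedom over genes was 35.6 and 22.7, against 54.0 to 80.5 for other pairs. In Ikbkb-/- the same measure was 1.93 for replicates 1 and 2, 3.96 for 1 and 3 and 4.51 for 3 and 4. Its other pairs gave 5.72 to 8.79. Libraries of these groups may not be independent either. Microglia markers were detected, 12 of 12, in every group, and their summed level was 6371 to 30256 CPM in the cultures and 39248 to 52646 CPM in the adult isolates.

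Vasp and Marcksl1 were the members whose levels in IkbkbCA lay above every IkbkbWT library, and the RefSeq promoter windows of both are shown because NF-κB proteins bind promoters at G-rich sites. Windows ran from 250 bases before to 50 after the annotated start, were taken from GRCm38.p6, and were listed for 6 of the 8 genes. Marcks and Lsp1 had no window. Capitals mark each match, on either strand, to GGG followed after any 5 bases by CC (a pattern that every κB consensus site also matches), where overlapping matches form 1 run. Vasp is at chr7:19271805-19272104 on the minus strand and Marcksl1 at chr4:129513331-129513630 on the plus strand.
Vasp: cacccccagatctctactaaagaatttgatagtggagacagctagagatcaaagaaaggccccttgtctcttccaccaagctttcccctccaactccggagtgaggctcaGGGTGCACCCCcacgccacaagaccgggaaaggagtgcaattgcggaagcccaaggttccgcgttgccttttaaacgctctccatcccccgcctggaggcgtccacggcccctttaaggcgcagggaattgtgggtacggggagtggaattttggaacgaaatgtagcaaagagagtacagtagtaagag
Marcksl1: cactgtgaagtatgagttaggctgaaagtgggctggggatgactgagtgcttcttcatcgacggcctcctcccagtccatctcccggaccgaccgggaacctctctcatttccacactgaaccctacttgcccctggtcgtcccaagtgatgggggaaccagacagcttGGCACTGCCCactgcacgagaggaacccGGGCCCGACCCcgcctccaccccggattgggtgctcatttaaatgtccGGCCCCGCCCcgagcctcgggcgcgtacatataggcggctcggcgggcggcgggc
The Vasp window held 3 matches, counting each strand, and these overlap at 1 place. The Marcksl1 window held 4, of which 2 overlap. Each Coro1a window held 2 and the Frmd6 window 1, while the windows of Lcp1 and Afap1l2 held 0. Such letters were present in 50.8% of the 32851 promoter windows of the same length, so a match is common. The stricter NF-κB consensus, known as the κB site, was found in 4.5% of all windows and in none of the 8 windows of the 6 genes (Coro1a and Lcp1 have 2 each), which says only that those letters are not in these windows. The Vasp window was 54.3% G or C and the Marcksl1 window 63.7%.

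Vasp, which promotes filament elongation at the leading edge and at adhesions, had group means that ran from 81.5 ± 6.66 CPM (SD, n = 4) in vehicle to 836 ± 88.4 CPM (SD, n = 5) in IkbkbCA, a 10.3-fold span. The 4 tau fibril libraries held 368, 429, 426 and 313 CPM of Vasp and the 4 vehicle libraries 82.1, 85.6, 71.9 and 86.3 CPM. Every tau library was above every vehicle library, with a log2 fold change of 2.28 (SE 0.14). The 5 IkbkbCA libraries held 894, 950, 831, 776 and 729 CPM of Vasp against 283, 282, 266, 248 and 229 CPM in the 5 IkbkbWT libraries. The groups again did not overlap and the log2 fold change was 1.67 (SE 0.09). It was 1.70 without IkbkbWT 3 and IkbkbCA 3, 1.68 within the libraries with a low neuron sum and 1.69 within those with a high one. In the order of group means IkbkbCA came first, apart from tau fibrils, Ikbkb-/- and NTG, which overlapped from each to the next. Of the next in order, Ikbkb+/+ lay below NTG without overlap, Ikbkb+/+, PS19 and IkbkbWT overlapped from each to the next, and vehicle stood apart as the lowest. PS19, which had a wide spread, also overlapped NTG, tau fibrils and Ikbkb-/-.

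Levels of Vasp were tested where the choice of genes had not used them. In PS19 the libraries held 295, 354, 214 and 215 CPM against 316, 327, 322 and 356 CPM in NTG, with 3 of 4 PS19 libraries below every NTG library, and the log2 difference was −0.36 (SE 0.20, 95% interval −0.75 to 0.03, edgeR FDR 0.649). The lowest levels were those of PS19 3 and PS19 4, which form 1 of the close pairs named above. The Ikbkb-/- libraries held 283, 287, 358 and 404 CPM of Vasp and the Ikbkb+/+ libraries 289, 268, 273 and 275 CPM. Replicates 3 and 4 of Ikbkb-/- were above all controls and replicates 1 and 2 were not, and the log2 difference was 0.29 (SE 0.10, FDR 0.0649). With 1 library left out it ran from 0.18 to 0.35. Replicates 3 and 4 may not be independent of each other, as stated above.

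**Figure D1:**
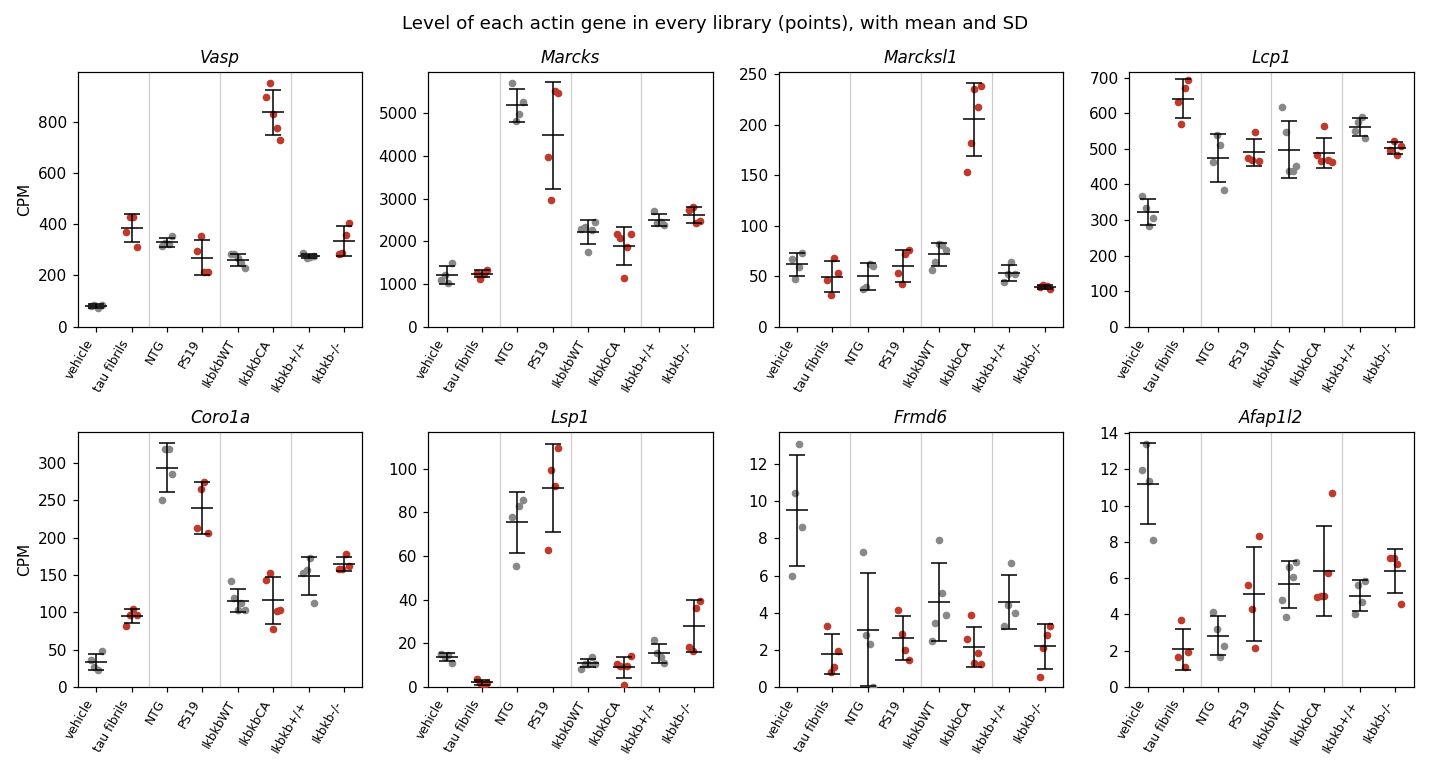
CPM of each of the 8 genes (y axis, linear, from 0) in the 8 groups (x axis). Each point is 1 library, grey for controls and red for the treated, transgenic or recombined group, and black bars are the mean and SD. Vasp and Marcksl1 in IkbkbCA lie above all other groups, and Lsp1 was highest in NTG and PS19.

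Marcks and Marcksl1 encode related membrane-bound proteins that hold the lipid PIP2 and crosslink actin, and are released by protein kinase C and calmodulin. Marcks was 1243 ± 86.6 CPM (SD, n = 4) with tau fibrils and 1206 ± 209 CPM (SD, n = 4) in vehicle, with overlapping libraries. Libraries of IkbkbCA and IkbkbWT also overlapped, with a log2 fold change of −0.24 (SE 0.17), and −0.15 without IkbkbWT 3 and IkbkbCA 3, which had the lowest levels of their groups, 1739 and 1135 CPM. In PS19 it was −0.28 (SE 0.22, interval −0.72 to 0.17, FDR 0.771) and in Ikbkb-/- 0.08 (SE 0.09, interval −0.09 to 0.24, FDR 0.626). Its group means ran highest in the adult isolates, 5182 ± 391 CPM (SD, n = 4) in NTG and 4482 ± 1247 CPM (SD, n = 4) in PS19.

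Marcksl1 was higher in IkbkbCA, whose 5 libraries held 154, 183, 235, 218 and 238 CPM against 55.8, 63.9, 81.8, 80.9 and 76.5 CPM in IkbkbWT. No library of one group reached the other, and the log2 fold change was 1.5 (SE 0.15), or 1.53 without IkbkbWT 3 and IkbkbCA 3. Within the libraries with a low neuron sum it was 1.5, and within those with a high one 1.56. With tau fibrils the value was −0.26 (SE 0.20), from 31.3 to 68.1 CPM against 47.2 to 73.1 CPM in vehicle, with overlap. Among the groups other than IkbkbCA, means of 39.9 to 71.8 CPM came from libraries that overlapped from each group to the next in order.

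In the Ikbkb-/- comparison Marcksl1 fell, with 39.3, 41.9, 40.9 and 37.4 CPM in Ikbkb-/- and 44.6, 52.5, 63.7 and 52.2 CPM in Ikbkb+/+. The groups did not overlap, and the log2 fold change was −0.42 (SE 0.11, FDR 0.0135). Without Ikbkb+/+ 3, the highest control, it was −0.32 (FDR 0.0711). With the log2 level of Ddx3y as a covariate it was −0.03 (SE 0.32, FDR 0.98), and that transcript did not overlap between the groups. In PS19 the difference was 0.22 (SE 0.24, interval −0.26 to 0.70, FDR 0.84).

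**Figure D2:**
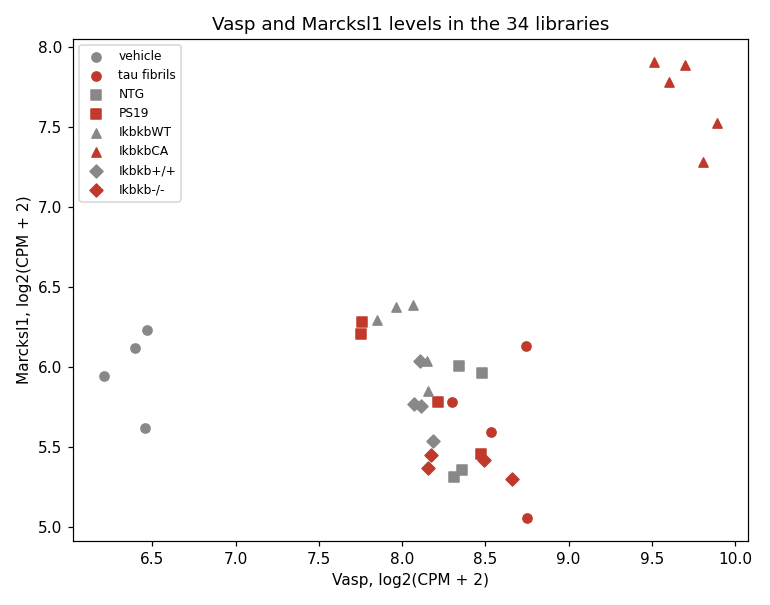
Vasp (x axis) against Marcksl1 (y axis) in log2(CPM + 2), 1 point per library and 1 symbol per pair of groups, controls grey. The 5 IkbkbCA libraries are the only points above 7 on the Marcksl1 axis, while the 4 tau libraries lie to the right of vehicle in Vasp at overlapping Marcksl1.

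Among the leukocyte bundling and filament-binding proteins, Lcp1 (L-plastin, which ties filaments into bundles) and Coro1a (coronin 1A, which regulates Arp2/3 branches) were higher with tau fibrils. Lcp1 measured 631, 569, 670 and 694 CPM with tau fibrils and 368, 333, 282 and 307 CPM in vehicle, a log2 fold change of 1.03 (SE 0.13). Coro1a measured 82.3, 96.0, 105 and 96.9 CPM with tau fibrils and 35.9, 27.4, 23.1 and 48.2 CPM in vehicle, a log2 fold change of 1.57 (SE 0.18). Neither gene had overlapping groups. Lsp1, a leukocyte actin-binding protein, went the other way, at 3.82, 2.06, 0.732 and 1.93 CPM against 15.2, 13.98, 14.8 and 11.2 CPM. Its log2 fold change was −2.70 (SE 0.40), the lowest of 10408 genes tested, on 2 to 7 counts per tau library and 22 to 71 per vehicle library.

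In IkbkbCA none of these 3 genes separated from IkbkbWT. The log2 fold changes were −0.03 (SE 0.10) for Lcp1, −0.01 (SE 0.17) for Coro1a and −0.28 (SE 0.44) for Lsp1. Lsp1 was 0.926 CPM in IkbkbCA 3 and 9.65 to 14.2 CPM in the other 4 IkbkbCA libraries, against 8.47 to 13.6 CPM in IkbkbWT, and without IkbkbCA 3 the log2 fold change was 0.04. IkbkbCA 3 was also the lowest IkbkbCA library for Coro1a, at 77.6 CPM, and the highest for Lcp1, at 563 CPM.

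Lsp1 rose in Ikbkb-/-, with a log2 fold change of 0.96 (SE 0.25, FDR 0.0144), and the 4 libraries were 18.6, 16.5, 36.4 and 39.6 CPM against 21.6, 15.5, 13.9 and 11.2 CPM in Ikbkb+/+. Replicates 3 and 4 carried the rise and the groups overlapped. As stated above, these replicates may not be independent of each other. Without either of them the call was lost, at 0.81 (FDR 0.0669) without replicate 3 and 0.72 (FDR 0.0911) without replicate 4. With Ddx3y as a covariate the Lsp1 value was 0.10 (SE 0.79, FDR 0.972). Ddx3y did not overlap between the groups, so that fit cannot part it from the deletion. Lcp1 was below every control in all 4 Ikbkb-/- libraries, 483 to 522 CPM against 530 to 589 CPM, but did not pass the test at a log2 fold change of −0.15 (SE 0.07, FDR 0.207). Coro1a was 164 ± 9.33 CPM (SD, n = 4) in Ikbkb-/- and 149 ± 25.3 CPM (SD, n = 4) in Ikbkb+/+, a log2 difference of 0.16 (SE 0.11, interval −0.05 to 0.37, FDR 0.363).

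Adult isolates held more Lsp1 and Coro1a than any culture. Group means of Lsp1 were 91.1 ± 20.2 CPM (SD, n = 4) in PS19 and 75.4 ± 13.8 CPM (SD, n = 4) in NTG, and those of Coro1a 240 ± 35.3 and 294 ± 32.5 CPM (SD, n = 4), with no overlap between the adult and the culture groups next in order. Isolates also held 434 to 2632 CPM over 7 granulocyte markers in PS19 and 1552 to 2160 CPM in NTG, with all 7 detected, against 3.54 to 418 CPM in the cultures. Lsp1 and Coro1a are also leukocyte genes outside microglia, and the part of granulocyte RNA in their levels was not tested. Neither gene separated PS19 from NTG (Lsp1 0.21, SE 0.22, interval −0.22 to 0.64, FDR 0.825, and Coro1a −0.36, SE 0.18, interval −0.71 to −0.01, FDR 0.613). The Coro1a interval left out 0, while the unadjusted p of edgeR's test was 0.065. Lcp1 gave −0.02 (SE 0.17, interval −0.36 to 0.32, FDR 0.989).

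Frmd6, a FERM-domain protein of the Hippo pathway and cell cortex, and Afap1l2, an adaptor that binds Src kinase and actin, were low throughout. Frmd6 was 3.27, 0.824, 1.10 and 1.93 CPM with tau fibrils and 5.98, 10.4, 13.1 and 8.63 CPM in vehicle, a log2 fold change of −2.45 (SE 0.45). Afap1l2 was 1.64, 3.71, 1.10 and 1.93 CPM with tau fibrils and 12.0, 13.4, 11.3 and 8.12 CPM in vehicle, a log2 fold change of −2.36 (SE 0.41). They took the lowest places of the 10408 genes after Lsp1. Tau libraries held 2 to 6 counts of Frmd6 and 3 to 9 of Afap1l2, so these values rest on few reads.

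The groups overlapped for both genes in the other comparisons. Frmd6 gave −1.08 (SE 0.39) in IkbkbCA, or −0.62 without IkbkbWT 3 and IkbkbCA 3, the former holding the highest control value at 7.94 CPM. Within the libraries with a low neuron sum it was −0.85, and within those with a high one −1.43. In Ikbkb-/- Frmd6 was 0.546 to 3.30 CPM against 3.29 to 6.67 CPM (log2 −0.92, SE 0.34, FDR 0.0798). Afap1l2 gave 0.14 (SE 0.27) in IkbkbCA and 0.29 (SE 0.24, FDR 0.478) in Ikbkb-/-. In PS19 Frmd6 was −0.29 (SE 0.71, interval −1.67 to 1.09, FDR 0.938) and Afap1l2 0.83 (SE 0.52, interval −0.19 to 1.85, FDR 0.689), with 9 to 23 and 15 to 51 counts per PS19 library.

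The 8 genes were also counted against all genes, at an FDR under 0.05 over all genes tested. For tau fibrils and IkbkbCA these counts restate the values that chose the genes and are no test of them. With tau fibrils 3 were higher (background 14.5% of 10408 genes) and 3 lower (background 15.4%), and 6 had groups that did not overlap (background 28.2%). In IkbkbCA 2 were higher (background 7.31%), none lower (background 7.16%) and 2 did not overlap (background 12.4%). Nothing is read from either set of counts.

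In PS19 0 of the 8 genes passed edgeR's test (background 0.0707% of 11323 genes), 0 had an unadjusted p under 0.05 and 0 passed in DESeq2 or limma-voom, and none had groups apart (background 6.20%). Without PS19 1, whose Xist level went against its label, 0 passed as well, with Vasp at −0.40, Lsp1 at 0.36 and Coro1a at −0.30. In Ikbkb-/- 1 was higher (background 7.64% of 11242 genes), 1 lower (background 6.96%) and 2, Marcksl1 and Lcp1, did not overlap (background 18%).

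**Figure D3:**
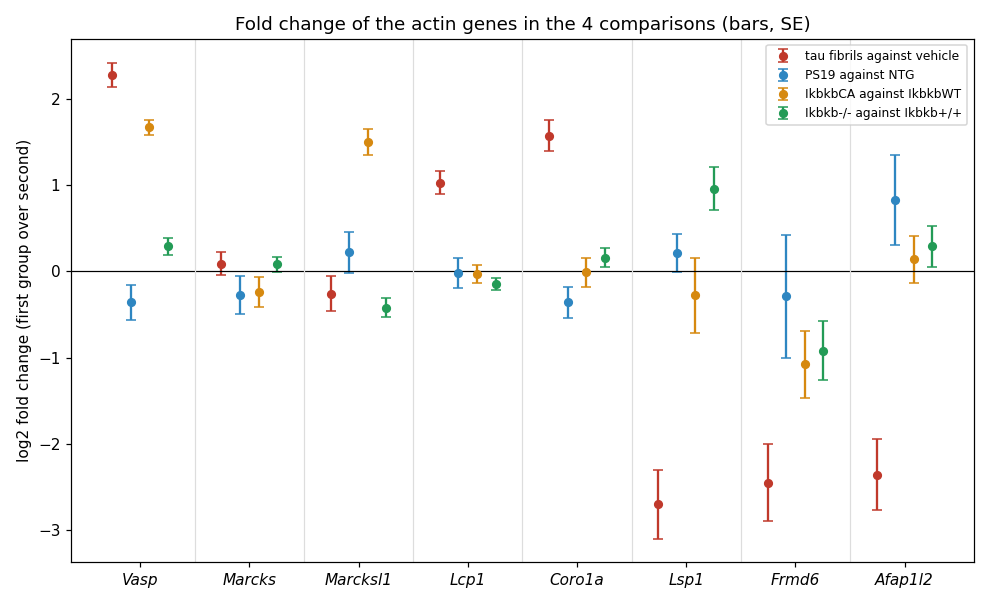
log2 fold change (y axis) of the 8 genes (x axis) in the 4 comparisons, with bars of 1 SE from edgeR. Vasp is at 2.28 with tau fibrils and 1.67 in IkbkbCA, Marcksl1 at 1.5 in IkbkbCA only, and Lsp1, Frmd6 and Afap1l2 lie at −2.70, −2.45 and −2.36 with tau fibrils.

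Markers of cell types moved with the tau comparison. The sum over 12 microglia markers was 13725 to 16384 CPM with tau fibrils and 6371 to 8412 CPM in vehicle. Sums over the 8 astrocyte (388 to 455 against 751 to 821 CPM), 8 oligodendrocyte (345 to 403 against 579 to 684 CPM) and 8 neuron markers (182 to 231 against 356 to 452 CPM) were lower with tau fibrils, with all members detected in both groups. Border-associated macrophage markers summed to 899 to 1086 CPM with tau fibrils and 203 to 276 CPM in vehicle, with 6 of 7 detected in each and Lyve1 at 0 with tau fibrils and Cd163 at 0 in vehicle. Most of that sum was Ms4a7, at 788 to 971 CPM against 142 to 200 CPM. Pf4 was 88.6 to 96.5 CPM against 43.5 to 75.8 CPM. Mrc1 and F13a1 overlapped, and Cd163, Lyve1 and Cbr2 held at most 9 counts in a library. Granulocyte markers summed to 3.54 to 8.28 CPM in both, with 4 of 7 detected in each and Ly6g and Retnlg at 0. Fewer cells of a type and less RNA per cell cannot be told apart in these bulk samples, and the part of these shifts in Vasp, Lcp1, Coro1a, Lsp1, Frmd6 and Afap1l2 was not tested. In IkbkbCA the microglia sum was 20101 to 30256 CPM against 16255 to 22116 CPM in IkbkbWT. The border-associated macrophage sum was 1392 to 1968 CPM against 1792 to 2384 CPM with 7 of 7 detected in both. Within it Mrc1 was 200 to 330 CPM against 960 to 1327 CPM and Lyve1 0.185 to 3.29 CPM against 32.9 to 53.5 CPM. Cbr2 and F13a1 were also lower without overlap, while Pf4 and Cd163 overlapped. Ms4a7 went the other way, at 751 to 986 CPM against 399 to 525 CPM. Granulocyte markers summed to 17.4 to 86.2 CPM in IkbkbCA, with 7 of 7 detected, and 7.37 to 14.5 CPM in IkbkbWT, with 6 of 7 detected and Ly6g at 0, without overlap. Only S100a8 separated, at 13.9 to 76.5 CPM against 3.28 to 7.14 CPM. Every other marker of that list overlapped, S100a9 at 1.96 to 4.08 CPM against 1.99 to 3.74 CPM, and Ly6g had at most 1 count. Fibroblast markers, 7 of 7 detected in both, summed to 107 to 423 CPM against 142 to 193 CPM. The part of these in the Vasp and Marcksl1 levels was not tested. In Ikbkb-/- the border-associated macrophage sum was 963 to 1398 CPM against 1941 to 2292 CPM in Ikbkb+/+, with 7 of 7 markers detected in both. Within it Ms4a7 went the other way, at 510.5 to 657 CPM against 431 to 484 CPM. The oligodendrocyte sum was 746 to 858 CPM against 457 to 574 CPM with 8 of 8 detected. Granulocyte markers summed to 9.80 to 15.5 CPM with 6 of 7 detected, against 12.5 to 418 CPM with 7 of 7, highest in Ikbkb+/+ 1. Fibroblast markers, 6 of 7 detected in each, summed to 67.1 to 95.9 CPM against 119 to 170 CPM, mostly as Fn1. The part of these in the Marcksl1 and Lsp1 differences was not tested.

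Of 109 other actin genes in 13 role groups, 106 were tested with tau fibrils. The list was drawn up with earlier results of these data known. Its shares, here and in the other comparisons, are therefore a description beside all genes and no test. All genes were not matched to the list for expression level, which also affects how easily a gene is called. There 52 were higher (49.1%, against 14.5% of all genes) and 21 lower (19.8%, against 15.4%), with a median log2 fold change of 0.38 against −0.01 for all genes. Scaling by total counts gave 41 and 27, while moving the median of all genes to −0.16. Aif1, a filament crosslinker that is also a microglia marker, rose most (log2 fold change 3.14, SE 0.17, FDR 1.75e-14), from 134 ± 37.6 to 1151 ± 189 CPM (SD, n = 4). Rac2, a GTPase of haematopoietic cells (2.43, SE 0.14, FDR 9.69e-14), and Coro2a, a coronin (2.28, SE 0.24, FDR 2.43e-08), followed. The lowest were the myosin light chain Myl9 (−1.25, SE 0.22, FDR 8.53e-05), the actin binder Cnn2 (−1.16, SE 0.23, FDR 0.000266) and Enah, a close relative of Vasp (−1.10, SE 0.13, FDR 3.2e-07).

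By role, with 14.5% of all genes higher and 15.4% lower, 7 of 10 Arp2/3 genes rose with tau fibrils and 2 fell, and 7 of 12 nucleation promoters rose and 4 fell. Of the other coronins 3 of 4 rose and 0 fell, of the monomer-binding proteins 4 of 6 rose and 1 fell, of the formins 3 of 7 rose and 0 fell, and of the myosins and tropomyosins 6 of 13 rose and 3 fell. Ena/VASP relatives and partners gave 2 higher and 1 lower of 5, severing proteins and their regulators 3 and 1 of 9, membrane linkers 2 and 1 of 6, and capping proteins 2 and 2 of 7. The 1 actin tested, Actb, rose. Among the promoters, chosen after their values were seen, Nckap1l, the form of haematopoietic cells, rose by 0.80 (FDR 9.07e-06), while Nckap1, the broadly expressed form, fell by 1.08 on the log2 scale (FDR 6.6e-06). Of the crosslinkers 2 of 10 rose and 4 fell. The marker sums above moved with these genes too, and their part was not tested.

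In IkbkbCA 12 of 106 rose (11.3%, against 7.31% of all genes) and 11 fell (10.4%, against 7.16%), with a median of 0.02, against −0.05 for all genes, and total-count scaling gave 8 and 16 at a median of −0.11 for all genes. Within the libraries with a low neuron sum 3 rose and 2 fell, and within those with a high one 18 rose and 14 fell. Capg, which caps filament ends, rose by 1.70 (SE 0.23, FDR 0.000432), Aif1 by 1.16 (SE 0.24, FDR 0.00695) and Capza2, a capping subunit, by 0.67 (SE 0.09, FDR 0.000405). Eps8, a capping and bundling protein, fell by 1.99 (SE 0.16, FDR 1.47e-05), the formin Diaph3 by 0.92 (SE 0.16, FDR 0.00233) and the GTPase Rhoh by 0.79 (SE 0.15, FDR 0.00364) on the log2 scale. While Vasp was higher in IkbkbCA, 3 of the 5 Ena/VASP relatives and partners fell and none rose. These, named after their values were seen, were Zyx (−0.72, FDR 0.0071), Raph1 (−0.56, FDR 0.0201) and Apbb1ip (−0.48, FDR 0.00804).

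In Ikbkb-/- 13 of 105 rose (12.4%, against 7.64% of all genes) and 8 fell (7.62%, close to the 6.96% of all genes), and total-count scaling gave 9 and 9. Coro2a rose by 1.58 (SE 0.15, FDR 6.41e-07), the Arp3 form Actr3b by 1.18 (SE 0.16, FDR 4.72e-05) and the WAVE subunit Cyfip2 by 0.94 (SE 0.12, FDR 1.83e-05). Eps8 fell by 1.18 (SE 0.15, FDR 2.17e-05), Diaph3 by 1.07 (SE 0.19, FDR 0.000879) and the crosslinker Flna by 0.70 (SE 0.09, FDR 2.65e-05) on the log2 scale. With Ddx3y as a covariate 4 genes of the list were called in place of 21. That transcript did not overlap between the groups, so the fit cannot part it from the deletion. In PS19 1 of 105 rose (0.952%), Actr3b, by 3.57 (SE 0.51, FDR 0.0195), at 13.3 ± 6.39 CPM against 1.14 ± 0.447 CPM (SD, n = 4). No gene of the list passed in 5 of the 8 fits that left out 1 library (PS19 1 or any NTG library), and 2 passed without PS19 2.

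**Figure D4:**
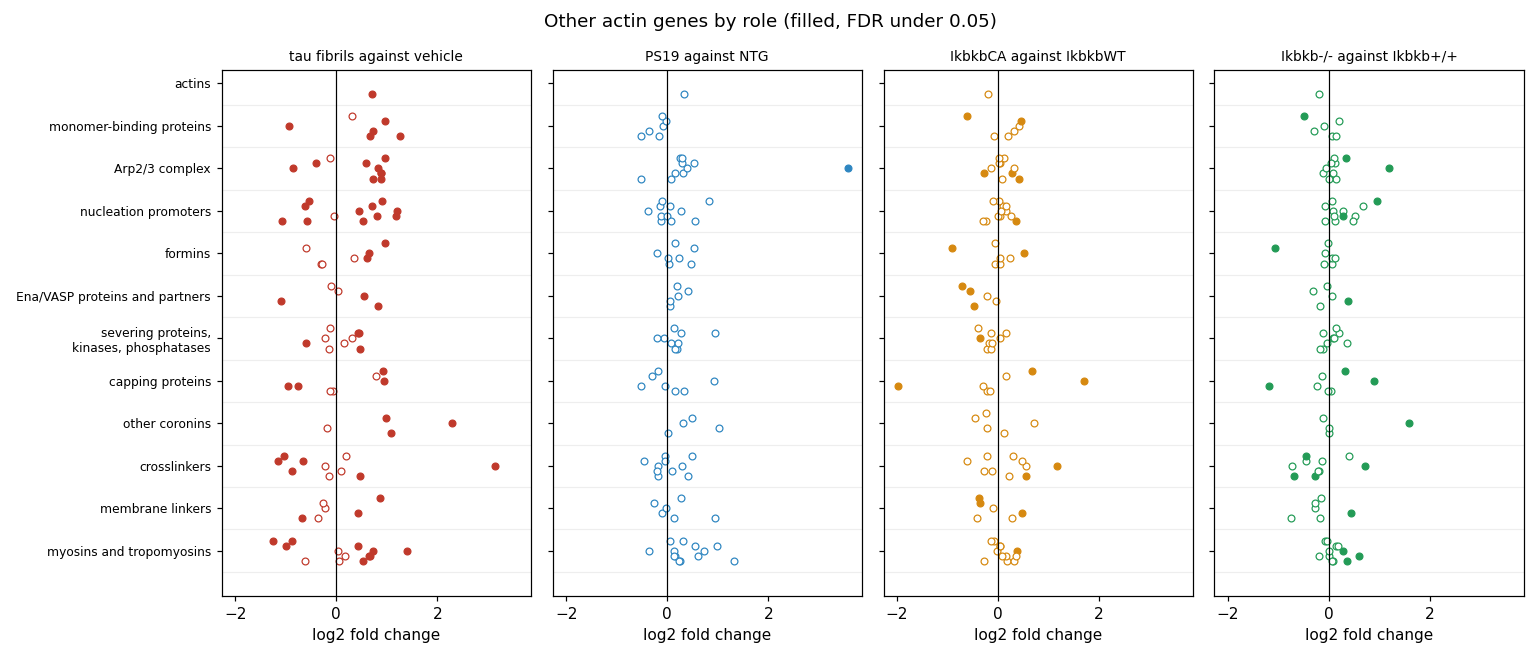
log2 fold change (x axis) of the other actin genes in 12 of the 13 role groups (y axis), 1 panel per comparison, with filled points for an FDR under 0.05. Most filled points lie to the right of 0 with tau fibrils, where 52 genes of the whole list rose and 21 fell (41 and 27 with total-count scaling).

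For each member the gene with the most similar profile over the 34 libraries, after each library was centred on its own experiment, was found among 8403 or 8404 genes with a mean of at least 10 CPM. Vasp was nearest to Acp2 (Pearson r 0.96), a lysosomal phosphatase, Lcp1 to Clec4a1 (0.90) and Coro1a to Cgas (0.88), the cytosolic DNA sensor. Afap1l2 was nearest to Zhx3 (0.85), Marcks to Aagab (0.80), Lsp1 to Slco2b1 (0.80), Marcksl1 to the glucose transporter Slc2a1 (0.77) and Frmd6 to the spindle protein Nusap1 (0.77). These values describe libraries that share treatments and are no test, and they did not hold alike within each comparison. Marcksl1 and Slc2a1 gave 0.91 in the IkbkbCA set but 0.19 in the tau set, 0.25 in the PS19 set and 0.54 in the Ikbkb-/- set. Within the Ikbkb-/- set Marcks and Aagab gave 0.05, Lsp1 and Slco2b1 0.17 and Vasp and Acp2 0.49, and within the IkbkbCA set Lcp1 and Clec4a1 gave 0.36 and Coro1a and Cgas 0.50. Acp2 was 319 CPM with tau fibrils against 90.8 CPM in vehicle and 308 CPM in IkbkbCA against 138 CPM in IkbkbWT, as Vasp was high in both. Among pairs of members, Vasp correlated at 0.66 with Coro1a and 0.61 with Lcp1, and at 0.30 with Marcksl1, over the same libraries.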

How the data were processed

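RNA of 34 mouse microglia samples was sequenced from transcript 3′ ends (QuantSeq), and 24 cortex samples of the same series were not analysed here. The authors deposited raw counts per Ensembl gene for each sample (47643 genes, 47224 with a symbol). The submitters' processing notes name STAR, RSEM, edgeR, limma and GRCm38, while the methods name a vendor's QuantSeq pipeline, and which of them made the files is not stated. Each file closed with 5 lines that name no gene, which were left out of library sizes. Reads outside genes were 12.4% to 38.3% and ambiguous reads 0.409% to 0.708% of a library. Libraries held 1672052 to 8349128 counts in genes. Of 56 replicate pairs 0 were identical.

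Each comparison was fitted on its own 2 groups with edgeR 4.0.16 in R 4.3.3 (trimmed mean of M values scaling, filterByExpr with a minimum count of 10 and total of 15, quasi-likelihood F test, Benjamini-Hochberg FDR under 0.05 over all genes tested). Intervals are from the fit's SE and a normal quantile, so with few libraries they are too narrow. Levels are CPM, and log2 levels used log2(CPM + 2). Levels are not compared between genes, since 3′ tags are not set per length. DESeq2 1.42.0, limma 3.58.1 (voom), other scalings and filters, an age covariate, a joint fit and each library left out in turn were alternatives, and the code was tested on simulated data. The members, the actin and marker lists and the promoter motifs were chosen with earlier results of these data known. All members were named in every comparison. From the other actin genes the 3 highest and 3 lowest fold changes among those called were named, as was the gene most similar to each member. The counts of 1 role group are not reported here.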

Additional observations from a re-analysis of the deposited data

Results flagged for a closer look

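Of 64 sets of member levels, 1 per gene and group, 6 held a library far from the others by Dixon's test, and chance flags about 1 in 20 such sets. Marcks was 1739 CPM in IkbkbWT 3, where the nearest library of its group was 2258 CPM, and 2715 CPM in Ikbkb+/+ 1, where the nearest was 2445 CPM. Lcp1 was 548 CPM in PS19 3 with the nearest at 475 CPM, and 563 CPM in IkbkbCA 3 with the nearest at 484 CPM. Afap1l2 was 10.7 CPM in IkbkbCA 5 with the nearest at 6.30 CPM, and 4.58 CPM in Ikbkb-/- 4 with the nearest at 6.77 CPM. IkbkbWT 3 and IkbkbCA 3 are the libraries with the highest oligodendrocyte marker sums of their groups, and the part of that in the Marcks and Lcp1 values was not tested.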

How the results depend on the processing

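No fold change of a member past the threshold changed direction under the alternatives run. No paired analysis was possible because the labels carry no replicate numbers and those used here follow deposit order. With tau fibrils 3 members were counted in place of 6 when at least 10 counts were asked for in every library, since Lsp1, Frmd6 and Afap1l2 were then not tested. In PS19 the 8 genes called became 166 without a filter, 98 with DESeq2, 4 with limma-voom and 0 with age as a covariate, and 4 to 54 with 1 library left out (54 without PS19 2). The 1 actin gene called became 4, 4, 0 and 0 under the same settings in that order, 0 with the stricter filter and 0 to 2 with 1 library left out. In Ikbkb-/- the 1641 genes called became 875 in a joint fit of the 18 Ikbkb libraries, and the 21 actin genes became 9. The 2 members called became 1 with DESeq2, 0 in the joint fit and 0 to 3 with 1 library left out. In that comparison Marcksl1 was −0.41 (FDR 0.12) and Lsp1 0.90 (FDR 0.234) in the joint fit, and Lsp1 was 0.87 (FDR 0.115) with DESeq2. Without Ikbkb+/+ 3 Lsp1 was 0.92 (FDR 0.0533), without Ikbkb-/- 3 0.81 (FDR 0.0669) and without Ikbkb-/- 4 0.72 (FDR 0.0911). Vasp passed without a filter (0.27, FDR 0.0405), without Ikbkb-/- 1 (0.34, FDR 0.0408) and without Ikbkb-/- 2 (0.35, FDR 0.0275). The following were chosen after seeing the data. Without Ikbkb-/- 3 and 4, which were picked for their high Lsp1 and Vasp levels so that the fit is no test of those genes, 919 genes and 0 members were called. The IkbkbCA comparison gave 1692 genes and 23 actin genes, which became 573 and 5 within the 6 libraries with a low neuron sum (under 200 CPM), 2310 and 32 within the other 4, and 1992 and 29 with that split as a term. In the Ikbkb-/- comparison 288 genes, 0 members and 4 actin genes were called with the log2 level of Ddx3y as a covariate. Ddx3y did not overlap between those groups, so that fit cannot part it from the deletion. The cause of these shifts was not tested. Few counts limit Lsp1, Frmd6 and Afap1l2 in the tau libraries.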
